A study of Mus musculus with 9 samples.

Results

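The genes described here encode the enzymes that write, copy and remove methyl groups on cytosine, measured by RNA-seq in mouse lymphomas. They were chosen by name, as the 10 rows of the count table with the symbols Tet1, Tet2, Tet3, Dnmt1, Dnmt3a, Dnmt3b, Uhrf1, Tdg, Idh1 and Idh2, out of 41128 genes. All 10 passed the filter on low counts, as did 14057 genes in all. The table held 3 Bcl6 tumors (Smc3 wt/wt, Cγ1 wt/cre, IµBcl6) and 6 Smc3/Bcl6 tumors (Smc3 wt/-, Cγ1 wt/cre, IµBcl6), with 1 library per tumor and between 10156728 and 17774577 counts per library. Every tumor, controls included, carried Cγ1-Cre, a recombinase expressed once B cells join the germinal center reaction, and IµBcl6, a knock-in that keeps Bcl6 on in B cells. The comparison addressed whether tumors with 1 deleted Smc3 allele, a subunit of the cohesin ring, differ in gene expression from tumors with both alleles. Ages are not given in the sources used here. By the labels, the first replicate of either genotype came from a mesenteric lymph node, and all others from a lymph node. They do not state that each tumor came from its own mouse, so that p-values measure the spread between these libraries.

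DNA methylation is set by DNMT3A and DNMT3B, which add methyl groups to new sites, and kept by DNMT1, which UHRF1 brings to newly copied DNA. TET1, TET2 and TET3 oxidize the methyl group, and the glycosylase TDG cuts out the oxidized bases so that repair puts back plain cytosine. TET enzymes need α-ketoglutarate, which IDH1 makes in the cytosol and IDH2 in mitochondria. TET2 and DNMT3A are among the genes most often mutated in blood cancers, and TET2 is mutated in diffuse large B-cell lymphoma.

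The library of Smc3/Bcl6 tumor 2, called tumor 2 where no genotype is given, stood apart from the other 8, and so the comparisons were made with it (9 tumors) and without it (8 tumors). Its median log2 difference from the other tumors ran from 1.16 in the shortest of 10 equal length classes of genes to -1.44 in the longest. Smc3 itself had 27.9 CPM (a count scaled to the library total, here with edgeR's TMM factors) in this tumor, between 88.1 and 126 CPM in the Bcl6 tumors and between 89.7 and 111 CPM in the other Smc3/Bcl6 tumors. Without tumor 2, Smc3 differed between genotypes by 0.01 log2 units (standard error 0.14), so that the RNA level did not separate the genotypes. These counts are per gene, and the exon that the deletion targets was not looked at on its own. The paper reports lower Smc3 mRNA in Smc3/Bcl6 tumors by RT-qPCR. The B-cell genes Cd79a, Cd79b, Ms4a1 and Pax5 were above 0 in every tumor, with a mean log2 CPM between 7.44 and 9.70.

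None of the 10 genes passed the study's thresholds for a genotype difference, an unadjusted p below 0.1 with an absolute log2 fold change above 0.56. This held with 9 tumors, where 2.15% of all genes tested passed, and with 8 tumors, where 3.82% passed. At an adjusted p below 0.05 from edgeR's quasi-likelihood test, 0 of the 10 and 0 of all genes passed in either comparison. At an unadjusted p below 0.05 the counts were 0 of the 10 genes and 0.562% of all genes with 9 tumors, and 0 and 1.82% with 8. DESeq2 called 0 of the 10 genes and 3.15% of all genes at the study's thresholds, and 0 of all genes at an adjusted p below 0.05. The levels of the 2 genotypes overlapped for each of the 10 genes, whereas they were fully apart for 0.484% of all genes with 9 tumors and 1.42% with 8. The median log2 fold change of the 10 genes was -0.08 with 9 tumors and -0.01 with 8, beside 0.06 and 0.03 over all genes tested.

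**Figure D1:**
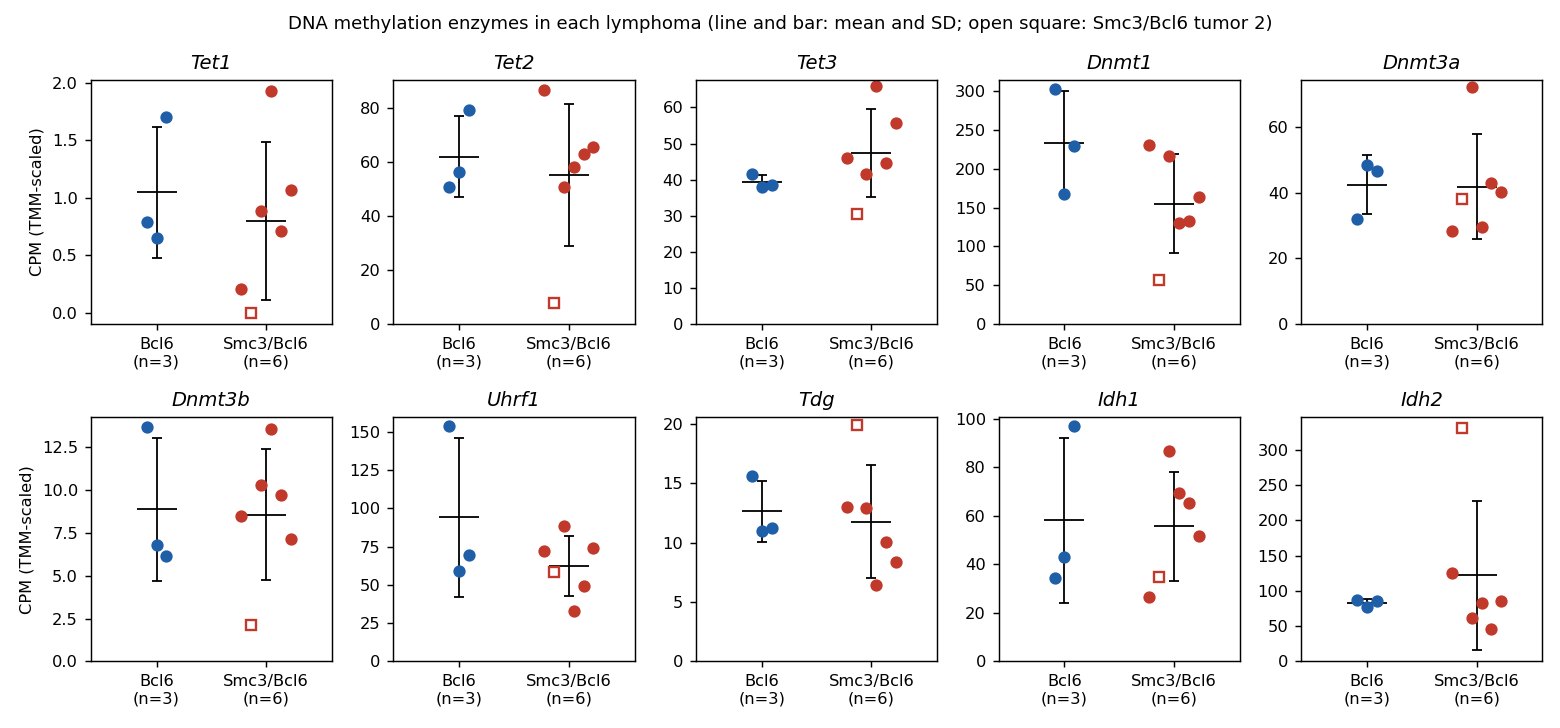
TMM-scaled CPM of each methylation gene, with 1 point per tumor and the genotypes side by side (3 Bcl6 tumors in blue, 6 Smc3/Bcl6 tumors in red, vertical scale set for each gene). Lines and bars are means and SDs over all tumors of a genotype, and the open square is Smc3/Bcl6 tumor 2, which lies apart from the rest for Tet2 (7.73 CPM) and Idh2 (331 CPM).

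Tet2 (ENSMUSG00000040943.8, chromosome 3 of GRCm38 from 133463679 to 133545139, minus strand) had 50.7, 56.3 and 79.2 CPM in Bcl6 tumors 1 to 3. In the Smc3/Bcl6 tumors it had a lowest value of 7.73 CPM, a median of 60.6 and a highest value of 86.7. The low value was that of tumor 2, and the other 5 Smc3/Bcl6 tumors, from 50.8 to 86.7 CPM, overlapped the range of the Bcl6 tumors. Its log2 fold change came to -0.17 (standard error 0.54; adjusted p = 1, edgeR) with 9 tumors and 0.06 (standard error 0.23, adjusted p = 0.988) with 8. Exact permutation of log2 CPM, two-sided, gave p = 0.857 over 84 splits of the tumors and p = 0.75 over the 56 splits without tumor 2. The smallest p these splits allow is 0.0238 and 0.0357. The direction of Tet2 thus turned with a single library, and in both comparisons its change was smaller than its standard error. By RT-qPCR, in lymphoma specimens it calls independent, the paper reports lower Tet2 mRNA in Smc3/Bcl6 tumors. It also reports weaker contacts of the Tet2 promoter with putative enhancers in these tumors. Neither was measured in the counts used here.

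Tet3 (ENSMUSG00000034832.10, chromosome 6 from 83362373 to 83459084, minus strand) was the steadiest of the 10 genes. It had 41.6, 38.0 and 38.6 CPM in the Bcl6 tumors, and a lowest value of 30.4, a median of 45.2 and a highest value of 65.9 CPM in the Smc3/Bcl6 tumors. Its SD on the log2 scale was 0.07 in Bcl6 tumors and 0.38 in Smc3/Bcl6 tumors, each the smallest among the 10 genes. Without tumor 2 the Smc3/Bcl6 tumors started at 41.63 CPM, level with the highest Bcl6 tumor, and had 50.7 ± 9.98 CPM (SD, n = 5) against 39.4 ± 1.97 CPM (SD, n = 3). On the log2 scale Tet3 differed by 0.27 (standard error 0.26, adjusted p = 1, edgeR) with 9 tumors and 0.38 (standard error 0.18, adjusted p = 0.985) with 8. The unadjusted p of the second was 0.0647, and the exact permutation test gave p = 0.0714. With 8 tumors it met the limit on p but not that on the fold change.

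Tet1 (ENSMUSG00000047146.10, chromosome 10 from 62804570 to 62908996, minus strand), the TET enzyme best known from embryonic stem cells, was close to the limit of detection. It had 0.794, 0.648 and 1.70 CPM in the Bcl6 tumors, and a lowest value of 0, a median of 0.799 and a highest value of 1.93 CPM in the Smc3/Bcl6 tumors. No tumor held more than 29 counts. The 0 was in tumor 2, where a count of 0 still allows 3 counts, or 0.318 CPM, by counting error alone. Between genotypes Tet1 differed by -0.36 on the log2 scale (standard error 0.93, adjusted p = 1, edgeR) and, without tumor 2, -0.11 (standard error 0.69, adjusted p = 0.992). With replicate number blocked, over replicates 1 to 3, it was -1.97 (standard error 1.00, unadjusted p = 0.0948), past the study's thresholds, as were 1.9% of all genes lower in Smc3/Bcl6 tumors in that fit. This value includes tumor 2 with its 0 counts, and with the block over replicates 1 and 3 it was -1.36 (unadjusted p = 0.173).

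Dnmt1 (ENSMUSG00000004099.10, chromosome 9 from 20907209 to 20959888, minus strand), the maintenance methyltransferase, had 303, 168 and 230 CPM in the Bcl6 tumors. In the Smc3/Bcl6 tumors its lowest value was 56.2 CPM, its median 148 and its highest 231. Tumor 2 was the lowest, tumors 4, 5 and 6, between 131 and 163 CPM, also lay below every Bcl6 tumor, and tumors 1 and 3 lay within the Bcl6 range. The genotype difference of Dnmt1 was -0.59 log2 units (standard error 0.40, adjusted p = 1, edgeR) with 9 tumors and -0.40 (standard error 0.26, adjusted p = 0.985) with 8. Exact permutation tests gave p = 0.119 and p = 0.179.

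Uhrf1 (ENSMUSG00000001228.9, chromosome 17 from 56303321 to 56323486, plus strand), which reads the half-methylated DNA behind the replication fork, had 154, 59.2 and 69.3 CPM in the Bcl6 tumors. Its lowest value in the Smc3/Bcl6 tumors was 33.2 CPM, its median 65.3 and its highest 88.3. Bcl6 tumor 1 was above every other tumor, while the other Bcl6 tumors lay within the Smc3/Bcl6 range. For Uhrf1 the genotypes differed by -0.59 log2 units (standard error 0.38, adjusted p = 1, edgeR) with 9 tumors and -0.54 (standard error 0.38, adjusted p = 0.985) with 8, and exact permutation tests gave p = 0.333 and p = 0.393. Leaving out Bcl6 tumor 2 gave -0.82 (unadjusted p = 0.0717), and leaving out Smc3/Bcl6 tumor 3 gave -0.71 (unadjusted p = 0.0847). Both were past the study's thresholds, as were 1.11% and 2.32% of all genes lower in Smc3/Bcl6 tumors in those comparisons. Without Bcl6 tumor 1 the value was -0.11 (unadjusted p = 0.785).

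Dnmt3a (ENSMUSG00000020661.10, chromosome 12 from 3806007 to 3914443, plus strand) and Dnmt3b (ENSMUSG00000027478.10, chromosome 2 from 153649450 to 153687730, plus strand) are the de novo methyltransferases. Dnmt3a had 32.0, 48.4 and 46.7 CPM in the Bcl6 tumors, and a lowest value of 28.2, a median of 39.1 and a highest of 72.1 CPM in the Smc3/Bcl6 tumors. Its mean was nearly the same in both, 42.4 ± 9.0 CPM (SD, n = 3) and 41.8 ± 16.0 CPM (SD, n = 6), and they differed by -0.02 log2 units (standard error 0.33, adjusted p = 1, edgeR) and, without tumor 2, 0.01 (standard error 0.33, adjusted p = 0.997). Dnmt3b had 13.7, 6.80 and 6.14 CPM in the Bcl6 tumors, and a lowest value of 2.12, a median of 9.09 and a highest of 13.6 CPM in the Smc3/Bcl6 tumors. Tumor 2 was again the lowest, and without it the 5 Smc3/Bcl6 tumors, from 7.13 CPM upward, lay within the Bcl6 range. For Dnmt3b the difference was -0.05 log2 units (standard error 0.52, adjusted p = 1, edgeR) with 9 tumors and 0.18 (standard error 0.34, adjusted p = 0.985) with 8. Exact permutation p was 0.81 or more for both genes with 9 tumors, and 0.821 and 0.536 with 8.

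Tdg (ENSMUSG00000034674.13, chromosome 10 from 82629828 to 82650799, plus strand) had 15.6, 11.02 and 11.3 CPM in the Bcl6 tumors, and a lowest value of 6.46, a median of 11.47 and a highest of 19.9 CPM in the Smc3/Bcl6 tumors. The highest value was that of tumor 2, opposite to Tet2, Dnmt1 and Dnmt3b. Tdg differed by -0.10 log2 units (standard error 0.38, adjusted p = 1, edgeR) with 9 tumors and -0.30 (standard error 0.29, adjusted p = 0.985) with 8, and exact permutation tests gave p = 0.643 and p = 0.286. Without strand in the counting, reads of Tdg and of the overlapping Glt8d2 cannot be told apart. Glt8d2 held at most 10 counts in any tumor. The antisense genes Dnmt3aos and Dnmt3bos held at most 7 and 5. How reads shared by overlapping genes were counted is not stated. These low counts therefore do not show how many reads the overlaps took from Tdg, Dnmt3a or Dnmt3b. Gm42567, which overlaps Tet2, was not among the genes counted, so that its part in the Tet2 reads was not looked at.

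Idh1 (ENSMUSG00000025950.11, chromosome 1 from 65158616 to 65186500, minus strand) had 34.3, 43.2 and 97.0 CPM in the Bcl6 tumors, and a lowest value of 26.4, a median of 58.3 and a highest of 86.8 CPM in the Smc3/Bcl6 tumors. It varied more than any other of the 10 genes among Bcl6 tumors (SD 0.79 on the log2 scale), and the ranges of the genotypes overlapped. Idh2 (ENSMUSG00000030541.11, chromosome 7 from 80094846 to 80115392, minus strand) had 86.7, 76.9 and 85.3 CPM in the Bcl6 tumors, and a lowest value of 46.6, a median of 84.3 and a highest of 331 CPM in the Smc3/Bcl6 tumors. The highest value was that of tumor 2, above the 126 CPM of the next tumor. Idh1 differed between genotypes by -0.06 log2 units (standard error 0.44, adjusted p = 1, edgeR) with 9 tumors and 0.03 (standard error 0.45, adjusted p = 0.994) with 8. For Idh2 it was 0.56 (standard error 0.58, adjusted p = 1, edgeR) with 9 tumors and -0.04 (standard error 0.29, adjusted p = 0.993) with 8, so that its positive value rested on 1 library. Exact permutation tests gave p = 1 for Idh1 and p = 0.857 for Idh2 with 9 tumors, and p = 0.821 and p = 0.75 with 8.

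**Figure D2:**
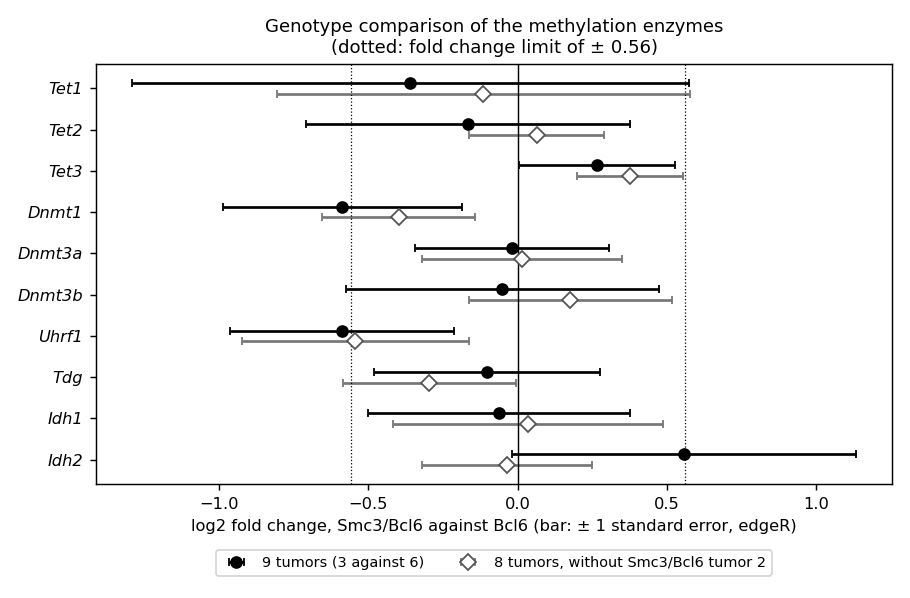
Log2 fold change of each methylation gene, Smc3/Bcl6 against Bcl6 tumors (horizontal axis), with 9 tumors (filled circles) and without Smc3/Bcl6 tumor 2 (open diamonds). Bars are 1 standard error from edgeR and dotted lines the fold change limit of 0.56. Without tumor 2, Tet2 moved from -0.17 to 0.06 and Idh2 from 0.56 to -0.04.

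Levels of different genes were compared per kilobase of exon, as CPM per kilobase averaged over 9 tumors. Idh2 (42.2 ± 33.2, SD, n = 9), Dnmt1 (24.6 ± 9.80), Idh1 (20.4 ± 8.89) and Uhrf1 (17.1 ± 8.01) formed an upper group. Tet2 (3.41 ± 1.32), Tet3 (2.68 ± 0.628), Dnmt3a (2.52 ± 0.805), Tdg (2.24 ± 0.739) and Dnmt3b (1.70 ± 0.720) formed a lower one, and Tet1 (0.057 ± 0.040) stood last. Only at 2 steps of this order was the upper gene above its neighbor in 9 of 9 tumors, between Uhrf1 and Tet2 and between Dnmt3b and Tet1. Within the groups, neighbors kept their order in between 4 and 7 of 9 tumors, so that these neighbors were not apart beyond their spread. Without tumor 2 the order was the same, Idh2 came to 31.5 ± 8.84 (SD, n = 8) and Dnmt1 to 26.7 ± 7.97, and the same 2 steps held in 8 of 8 tumors. The RNA of the maintenance pair, Dnmt1 and Uhrf1, thus stood above that of the de novo pair and of the TET genes on this scale, and Tet2 and Tet3 stood next to each other.

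The balance within each enzyme family was compared as a share of CPM per kilobase, which does not depend on library scaling. Tet2 made up 54.2%, 59.0% and 66.0% of the TET total in the Bcl6 tumors. In the 5 Smc3/Bcl6 tumors other than tumor 2 it made up between 45.9% and 65.1%, and in tumor 2 it made up 20.1%. The means were 59.7% ± 5.95 (SD, n = 3) and 49.4% ± 15.7 (SD, n = 6), an unadjusted exact permutation p of 0.19 (0.381 adjusted over 4 shares), and without tumor 2 the difference was -4.48 percentage points (exact permutation p = 0.286). Dnmt1 made up 87.6% ± 2.95 (SD, n = 3) of the DNMT total in Bcl6 tumors and 82.0% ± 5.56 (SD, n = 6) in Smc3/Bcl6 tumors (exact permutation p = 0.167, adjusted 0.381). Without tumor 2 that difference was -4.00 percentage points (exact permutation p = 0.25).

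Dnmt3a took 60.1% ± 15.9 (SD, n = 3) and 60.7% ± 15.4 (SD, n = 6) of the de novo total in the 2 genotypes (exact permutation p = 1), with 84.6% in tumor 2. Without tumor 2 the sign turned, to -4.18 percentage points (exact permutation p = 0.607). Idh1 took 37.6% ± 12.6 (SD, n = 3) and 36.4% ± 20.2 (SD, n = 6) of the Idh1 and Idh2 total (exact permutation p = 0.952), with 8.97% in tumor 2. Here too the sign turned without tumor 2, from -1.20 to 4.29 percentage points (exact permutation p = 0.714). None of the 4 shares differed between genotypes beyond the spread between tumors, with or without tumor 2. Tumor 2 lay outside the range of the other 8 tumors in each of them.

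**Figure D3:**
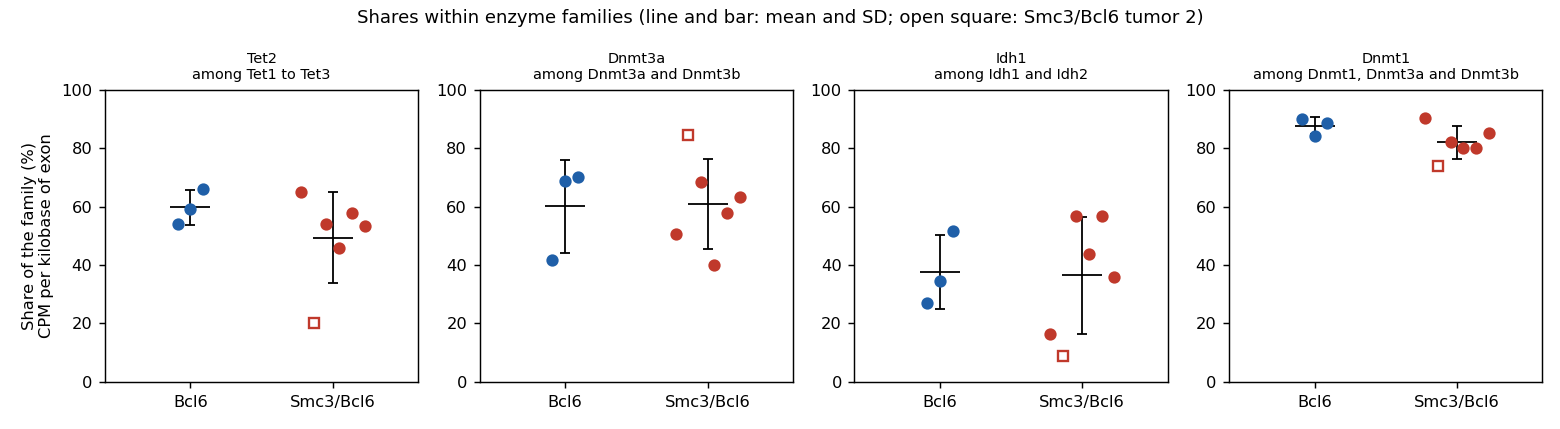
Share of an enzyme family taken by 1 gene (vertical axis, percent of CPM per kilobase of exon) in each Bcl6 tumor (blue) and Smc3/Bcl6 tumor (red), with mean and SD per genotype and Smc3/Bcl6 tumor 2 as an open square. Tumor 2 holds the lowest share of Tet2 (20.1%), Idh1 (8.97%) and Dnmt1 (73.9%), and the highest of Dnmt3a (84.6%).

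In Smc3/Bcl6 tumor 2 the 10 genes did not move as one, nor did genes of nearly the same exon length. Exon length here covers all annotated transcripts of a gene, and the length of the transcripts expressed was not measured. Tet2, Tet3 and Dnmt3a have exons of 16870, 16695 and 16642 bases, all in the longest length class, for which the median log2 difference of tumor 2 from the mean of the other 8 tumors was -1.44. Tet2 was at -2.998, Tet3 at -0.59 and Dnmt3a at -0.10, the last within the range of the other tumors. Tet1, of the same class but with 0 counts in tumor 2, was at -2.82, a value that depends on the prior count. Of genes of middle length, Dnmt3b (5106 bases) was at -2.03 and Tdg (5374 bases) at 0.88, where the median of their class was -0.46. Dnmt1 was at -1.75 (median -0.90), Uhrf1 at -0.23 (median -0.23), Idh1 at -0.64 (median 0.36) and Idh2 at 2.07 (median 0.58). After an offset for length and GC content in each tumor, Dnmt3b was at -1.76, Tet2 at -1.24, Tet1 at -1.14, Dnmt1 at -1.09, Idh1 at -1.03 and Uhrf1 at -0.19, while Dnmt3a was at 1.52, Idh2 at 1.49, Tdg at 1.31 and Tet3 at 1.03. With 9 tumors and this offset, Dnmt1 had a log2 fold change of -0.60 (unadjusted p = 0.0783) and passed the study's thresholds, as did 0.797% of all genes lower in Smc3/Bcl6 tumors.

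**Figure D4:**
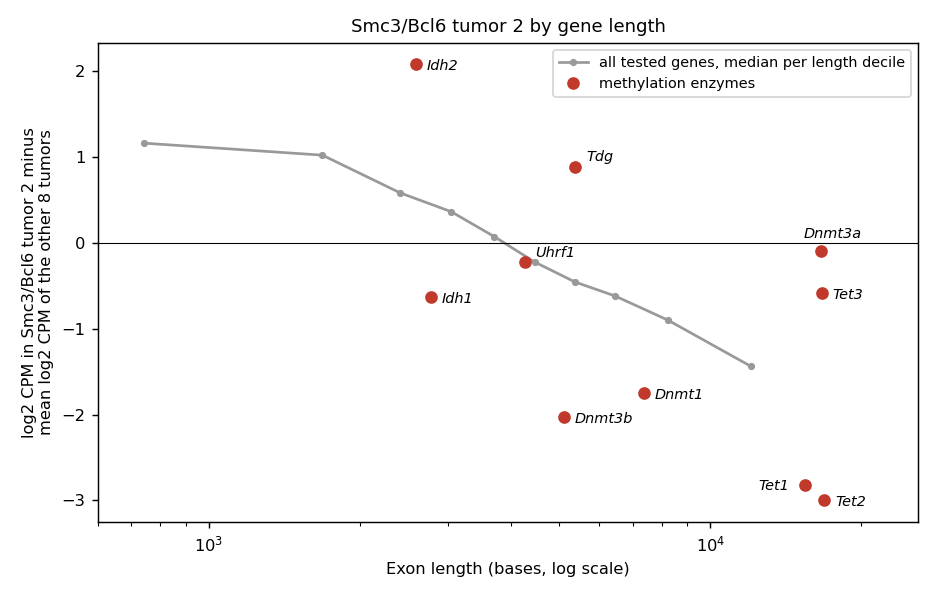
Log2 CPM in Smc3/Bcl6 tumor 2 minus the mean log2 CPM of the other 8 tumors (vertical axis) against exon length in bases (horizontal log axis). Red points are the methylation genes and the gray line joins the medians of 10 length classes of all tested genes, from 1.16 to -1.44. Tet2 (-2.998), Tet3 (-0.59) and Dnmt3a (-0.10) differ at nearly the same annotated exon length.

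DNMT1 and UHRF1 act at replicating DNA, and so each gene was set against the mean log2 CPM of 20 DNA replication genes (Mcm2 to Mcm7, Pcna, Rrm1, Rrm2, Gins1, Gins2, Cdc45, Cdc6, Cdt1, Fen1, Lig1, Rfc3, Rfc4, Pola1 and Prim1). In 8 tumors Dnmt1 followed this mean (Pearson r = 0.91, exact permutation p = 0.000967, adjusted over the 10 genes 0.00967; Spearman rho = 0.90, exact permutation p = 0.00456). It was still 0.82 without Bcl6 tumor 1 and Smc3/Bcl6 tumor 4, the ends of the range. With tumor 2, which had the highest replication mean (6.99) and the lowest Dnmt1, r was -0.05. Uhrf1 had r = 0.93 in 8 tumors (exact permutation p = 0.00399, adjusted 0.0133) but rho = 0.69 (exact permutation p = 0.0694, adjusted 0.23). Without the 2 end tumors its r was 0.57. It was 0.89 without tumor 2 and Smc3/Bcl6 tumor 4 but with Bcl6 tumor 1. The relation thus rested largely on Bcl6 tumor 1. With all 9 tumors r was 0.68 (exact permutation p = 0.0417, adjusted 0.139; rho = 0.43).

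Tdg followed the replication genes with 9 tumors (r = 0.94, exact permutation p = 0.000446, adjusted 0.00446; rho = 0.93, exact permutation p = 0.00075) and with 8 (r = 0.91, exact permutation p = 0.00226, adjusted 0.0113; rho = 0.90). Without the 2 tumors farthest from the median it was 0.86 and 0.75. Tet3 ran the other way with 9 tumors (r = -0.79, exact permutation p = 0.012, adjusted 0.0598; rho = -0.63), and r was -0.41 without the 2 farthest tumors. Taken as deviations from the genotype means in 8 tumors, r was 0.89 for Dnmt1, 0.95 for Uhrf1 and 0.91 for Tdg, each with an exact permutation p adjusted to 0.0509. For the other 6 genes the adjusted exact permutation p of r was 0.146 or more in both sets of tumors. The replication mean itself was 6.46 ± 0.41 (SD, n = 3) in Bcl6 tumors and 6.10 ± 0.53 (SD, n = 6) in Smc3/Bcl6 tumors (exact permutation p = 0.429), and 5.92 ± 0.34 (SD, n = 5) without tumor 2 (exact permutation p = 0.179). In bulk tumors, fewer cells of a type and less RNA per cell cannot be told apart.

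Of the 20 replication genes, 2 (Lig1 and Pola1) were lower in Smc3/Bcl6 tumors at the study's thresholds with 9 tumors, where 0.868% of all genes were, and 7 with 8 tumors (Mcm5, Rrm2, Gins1, Cdc45, Lig1, Rfc4 and Prim1), where 1.39% of all genes were. With 8 tumors 19 of the 20 were below 0, with a median log2 fold change of -0.51 beside 0.03 over all genes tested. The 20 genes are not independent measures, and their mean differed with an exact permutation p of 0.179 in the same tumors. The count of replication genes lower at the study's thresholds was 0 with replicate number blocked, over replicates 1 to 3. It was also 0 with the tissue label as a covariate, without Bcl6 tumor 1 and without each of Smc3/Bcl6 tumors 4, 5 and 6. All of these settings include tumor 2. With 9 tumors it was 2 or 3 under other normalizations, DESeq2 and limma. Of the settings without tumor 2, DESeq2 gave 7, the length and GC offset 8, and the block over replicates 1 and 3 gave 0. The share of all genes in these settings is not given here.

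Dnmt1 and Uhrf1 were the only 2 of the 10 genes with a letter match to the E2F site, the binding motif of the factors that switch on replication genes, in the RefSeq windows at their start sites (GRCm38.p6), which lie mostly upstream of the start. The letters searched on both strands were TTTCGCGC, TTTGGCGC, TTTCCCGC and TTTGCCGC. They stood in 2.27% of 32851 windows, in 2.6% of 27025 genes and in 9 of the 17 replication genes with a window. Tdg, which followed the replication genes with 9 and with 8 tumors, had 0 matches. The 30 bases around 1 match of each gene are shown because DNMT1 and UHRF1 act together at replicating DNA, with the match in capitals, 5′ to 3′ on the strand of the gene.
Dnmt1, chr9:20952824-20952853, minus strand, 219 bases before a start: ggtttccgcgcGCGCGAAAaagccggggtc
Uhrf1, chr17:56304117-56304146, plus strand, 185 bases before a start: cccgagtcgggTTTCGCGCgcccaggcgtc
GENCODE M21 annotates the Dnmt1 stretch as exon and untranslated region of another transcript, and the Uhrf1 stretch as lying in an intron. A match is a description of letters only, and binding was not measured here. The windows of the 10 genes held a median of 23 CpG dinucleotides and those of the replication genes 21, beside 7 over all windows. The letters searched all contain a CpG, and the matches were not set against CpG content. Among the 10 genes the window of Tet2, with 57, held the most.

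**Figure D5:**
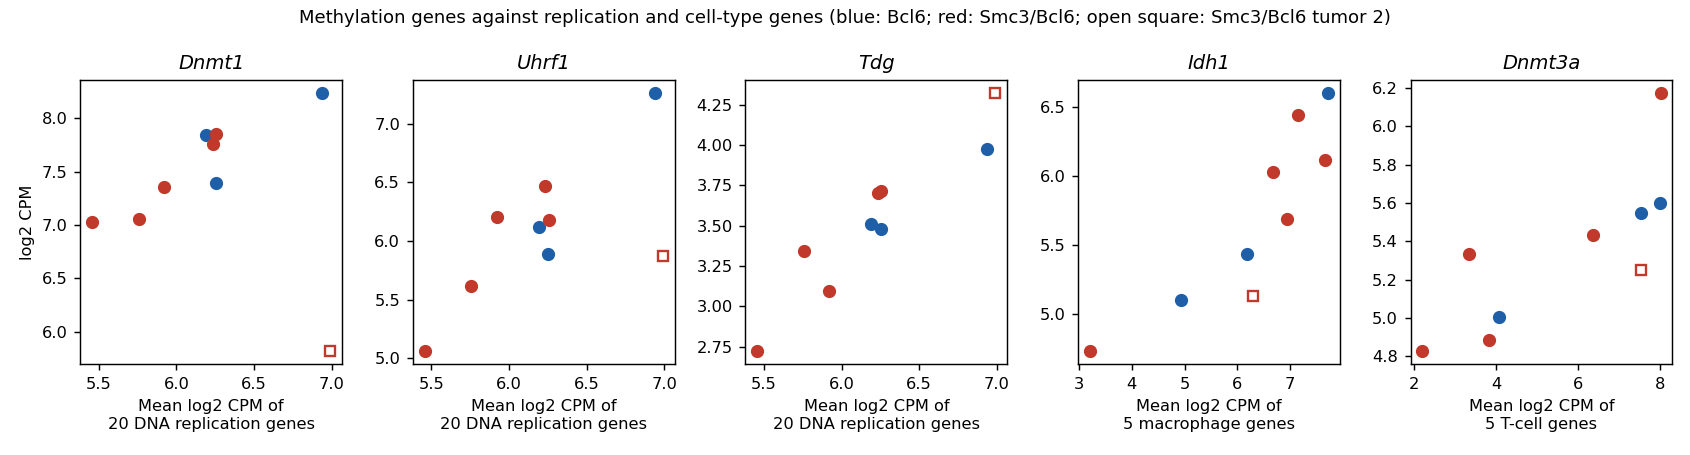
Log2 CPM of Dnmt1, Uhrf1 and Tdg against the mean log2 CPM of 20 DNA replication genes, of Idh1 against 5 macrophage genes and of Dnmt3a against 5 T-cell genes, with 1 point per tumor (blue, Bcl6; red, Smc3/Bcl6; open square, Smc3/Bcl6 tumor 2). Tumor 2 leaves the trend of Dnmt1 and keeps to that of Tdg.

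The tumors differed widely in markers of other cells. The mean log2 CPM of 5 T-cell genes (Cd3d, Cd3e, Cd3g, Cd4, Cd8a) ran from 4.07 to 8.003 in Bcl6 and from 2.20 to 8.02 in Smc3/Bcl6 tumors. That of 5 macrophage genes (Emr1, the older symbol of Adgre1, Csf1r, Cd68, Mertk, C1qa) ran from 4.93 to 7.72 and from 3.20 to 7.66. All 10 markers were above 0 in every tumor. Idh1 moved with the macrophage genes in 9 tumors (r = 0.87, exact permutation p = 0.00048, adjusted over 80 relations 0.0384; rho = 0.95, exact permutation p = 0.000353) and in 8 (r = 0.92, exact permutation p = 0.000546, adjusted 0.0294; rho = 0.95), and r was 0.84 and 0.79 without the 2 farthest tumors. Dnmt3a moved with the T-cell genes in 8 tumors (r = 0.85, exact permutation p = 0.00498, adjusted 0.057; rho = 0.93), short of an adjusted 0.05, and r was 0.81 without the 2 farthest. With 9 tumors this relation had r = 0.79 (exact permutation p = 0.00967, adjusted 0.234; rho = 0.82). These 80 relations, of the 10 genes with 8 cell-type lists, were added after the data were seen, and the part of other cells in the level of each gene was not tested.

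In the same family, 1 of 80 relations passed an adjusted p of 0.05 for r with 9 tumors and 6 with 8. Beside Idh1 with macrophages, the 6 were Tet1 with macrophages (r = 0.89, rho = 0.88), Idh2 with germinal center B-cell genes (r = 0.91, rho = 0.88), Tdg with erythroid genes (r = -0.92, rho = -0.74), and Dnmt1 and Uhrf1 with stromal genes (r = -0.91 for each, rho = -0.81 and -0.88). Exact permutation p adjusted over the 80 relations was between 0.0294 and 0.0354 for these values of r, and between 0.0893 and 0.229 for rho of all 6. Without the 2 farthest tumors r was 0.93 for Tet1, 0.84 for Idh2, -0.69 for Tdg and -0.79 for Dnmt1 and Uhrf1. With 9 tumors none of these 5 passed an adjusted 0.05, where r was 0.56 for Tet1, 0.61 for Idh2, -0.59 for Tdg, -0.64 for Uhrf1 and 0.09 for Dnmt1, whose sign turned. Tet1 had at most 29 counts. The stromal genes were also low, with a mean log2 CPM from 0.145 to 2.41 in Bcl6 and from -0.0107 to 2.91 in Smc3/Bcl6 tumors. Among them Col3a1 was not above 0 in every tumor.

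The genes whose log2 CPM was most like that of a member over 8 tumors are given as a description. They were picked for the highest r among all genes tested. How high an r such a pick gives by chance was not tested. These values, and the gene functions named beside them, therefore cannot show a shared role. For Dnmt1 the genes most alike were Wdr62, Kif4 and Utp23 (r = 0.99, 0.98 and 0.98). Wdr62 and Kif4 are genes of the mitotic spindle and chromosomes. The first 2 kept r = 0.84 over 9 tumors, and Utp23 had -0.41. For Uhrf1 they were Gspt1, Rcc1 and Med17 (r from 0.97 to 0.98, and from 0.79 to 0.98 over 9 tumors), and for Tdg they were Brix1, Sephs1 and Hmmr (r from 0.98 to 0.997, and from 0.70 to 0.97). For Idh1 they were the myeloid receptor Clec12a, Gm20540 and C130050O18Rik (r from 0.97 to 0.98, and from 0.81 to 0.84). For Dnmt3a they were Trav16n, a T-cell receptor segment (r = 0.98 over 8 and 0.94 over 9), 5730508B09Rik and 1700026L06Rik. Tet2 had Pamr1, Art3 and Gm9828 (r from 0.94 to 0.97, but from 0.08 to 0.57 over 9 tumors). The remaining lists were Gm14548, Clec4a2 and Tnfrsf21 for Tet1, Agbl3 and Pkd1 for Tet3, Cep152, Aplf and Ccdc137 for Dnmt3b, and St8sia4, Trappc5 and A530054K11Rik for Idh2, with r from 0.93 to 0.985 over 8 tumors. Over 9 tumors their r ran from 0.34 to 0.75 for Tet1, 0.79 to 0.81 for Tet3, 0.10 to 0.96 for Dnmt3b and -0.63 to 0.91 for Idh2, so that several of these likenesses held only without tumor 2.

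Of 54 tested genes in 4 wider lists of methylation genes, 1 (1.85%) passed the study's thresholds with 9 tumors and 2 (3.7%) with 8, close to the 2.15% and 3.82% of all genes. Of 8 tested cofactors of maintenance and de novo methylation (among them Hells, Uhrf2 and Trim28), 0 passed with 9 or 8 tumors, with a median log2 fold change of -0.26 and -0.17. Of 16 enzymes that supply or use the metabolites of methylation (among them Idh3a, Ogdh and Mat2a), 0 passed, with a median of 0.00 and -0.07. Dnmt3l, Zfp57 and Cxxc4 were too low to be tested.

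Of 15 base excision and demethylation partners 1 passed, Neil1, a glycosylase that removes oxidized bases. It had 49.5, 30.1 and 32.5 CPM in the Bcl6 tumors, and a lowest value of 29.0, a median of 62.7 and a highest of 102 CPM in the Smc3/Bcl6 tumors. The groups overlapped, with 4 Smc3/Bcl6 tumors above every Bcl6 tumor. Neil1 differed by 0.80 log2 units (standard error 0.40, unadjusted p = 0.0701, adjusted p = 1, edgeR), where 1.28% of all genes were higher, and 0.91 (standard error 0.39, unadjusted p = 0.0461) without tumor 2, where 2.43% were. It was 0.20 (unadjusted p = 0.591) with the replicate block. Its edgeR p missed the limit with the length and GC offset (0.76 log2 units) and on total counts alone (0.74). The same held without Bcl6 tumor 2 (0.67), Bcl6 tumor 3 (0.71), Smc3/Bcl6 tumor 5 (0.63) or Smc3/Bcl6 tumor 6 (0.70).

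Of 15 readers of methylated or unmethylated CpG, 0 passed with 9 tumors and 1 with 8, Zbtb33, a protein that binds methylated DNA. It had 4.41, 3.51 and 4.35 CPM in the Bcl6 tumors, and a lowest value of 1.74, a median of 2.58 and a highest of 4.45 CPM in the Smc3/Bcl6 tumors. Tumor 2 was the highest, and the other 5 lay below every Bcl6 tumor. Without tumor 2 the genotypes were fully apart, in either direction, for 1.42% of all genes. Zbtb33 differed by -0.57 log2 units (standard error 0.40, unadjusted p = 0.19, edgeR) with 9 tumors and -0.74 (standard error 0.32, unadjusted p = 0.0455, adjusted p = 0.985) with 8, where 1.39% of all genes were lower. With the block it was -0.47 (unadjusted p = 0.461).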

How the data were processed

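RNA-seq libraries of 9 lymphomas were compared, 3 Bcl6 and 6 Smc3/Bcl6, grouped by the genotype and replicate number in the sample labels. The deposited values are raw counts per Gencode M12 gene, which the authors made with the nf-core workflow (STAR alignment to mm10, featureCounts) and did not normalize. The submitters' processing notes also name DESeq2 1.28.1 and R 4.0.2. The counting is not stated to use strand. The table held 0 columns without a sample. The study describes all tumors as mesenteric lymph node lymphomas, while the labels do so only for replicate 1 of each genotype.

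Counts were normalized by TMM and tested with edgeR 4.0.16 in R 4.3.3 (filterByExpr within genotypes and the quasi-likelihood F-test), and p-values were adjusted by Benjamini-Hochberg over 14057 genes with 9 tumors and 13942 with 8. Calls used the thresholds of the study, a log2 fold change beyond 0.56 in either direction at an unadjusted p under 0.1. CPM is TMM-scaled, and log2 CPM has a prior count of 2. Exon lengths, GC content and positions came from GENCODE M21 (same GRCm38 build), in which 97.9% of gene identifiers were found. Exon length is the union of exons over all annotated transcripts of a gene, and need not be that of the transcripts expressed. This limit holds for the length classes, the length offset and the levels per kilobase. Promoter sequences came from RefSeq (GRCm38.p6), with a window for 10 of 10 genes. Single values and correlations were tested by exact two-sided permutation, enumerated with NumPy 2.4.6. Deviations from genotype means were permuted within each genotype. Libraries held 10156728 to 17774577 counts, and the limit that a count of 0 allows covers counting error only.

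All 10 genes are named. Genes of the wider methylation lists are named where they passed the thresholds with 9 or 8 tumors, and for each of the 10 genes the 3 tested genes with the highest r over 8 tumors. Some genes that these rules or lists hold are not reported here by name. The members and lists were chosen with earlier results of these data known. After subtraction of genotype means, Bcl6 and Smc3/Bcl6 tumors with numbers 1, 2 and 3 correlated across genes at r = 0.471, 0.130 and 0.181. Tumors with different numbers were not set against each other, so that these values cannot show whether the numbers pair tumors. The labels do not state a pairing, and the replicate block over replicates 1 to 3 was run as an alternative only. Alternatives were other normalizations, no filter, DESeq2 1.42.0, limma 3.58.1 with and without quality weights, a tissue covariate, the replicate block, an offset for exon length and GC content (lowess, span 0.3), and leaving out each tumor in turn. Scripts were tested on simulated counts with 200 changed genes.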

Additional observations from a re-analysis of the deposited data

Results flagged for a closer look

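Tet2 was far lower in Smc3/Bcl6 tumor 2 than in the other Smc3/Bcl6 tumors, and its gap to the next tumor was 0.778 of the whole range of log2 CPM over the 6 tumors. Dnmt3b was also far lowest in that tumor, with a gap of 0.648 of the range. Both gaps were above Dixon's critical value for 6 samples. Chance gives such a gap in about 1 in 20 groups of independent values, and 15 measures were examined. These measures share the same tumors, and tumor 2 had been set apart beforehand as low in long genes. The rate therefore does not measure how unexpected both gaps are. The low counts of long genes in this tumor are given beside the values of Tet2, and their part in the level of Tet2 or of Dnmt3b was not tested beyond the length and GC content offset, after which Tet2 was at -1.24 and Dnmt3b at -1.76 log2 units from the mean of the other 8 tumors.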

How the results depend on the processing

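Of 230 alternative values for the log2 fold changes of the 10 genes, 186 kept their direction and side of the study's thresholds, 40 changed sign and 4 passed the thresholds. None was higher past the thresholds, and adjusted p ranged from 0.563 (Tet3, limma with quality weights) to 1 over 21 settings. The count of genes called lower became 1 with the replicate block over replicates 1 to 3 (Tet1, -1.97), 1 with the length and GC offset (Dnmt1, -0.60), and 0 to 1 with a tumor left out (Uhrf1 without Bcl6 tumor 2 or Smc3/Bcl6 tumor 3). The block changed no other call of the 10 genes. Signs turned as follows. Limma with quality weights gave 0.0328 for Tet2, 0.26 for Dnmt3b, 0.0647 for Idh1 and -0.0319 for Idh2. The replicate block gave -0.0557 for Tet3 and 0.23 for Tdg. With the block and the offset together Dnmt3a was 0.52 and Tdg 0.38, and with the offset alone Dnmt3a was 0.28 and Tdg 0.0445. Dnmt3a was 0.0023 with RLE factors and 0.0025 with DESeq2, and Dnmt3b was 0.12 with the tissue label. DESeq2 on 8 tumors gave 0.0653 for Tet2, 0.0187 for Dnmt3a, 0.18 for Dnmt3b, 0.0387 for Idh1 and -0.0363 for Idh2. The offset on 8 tumors gave 0.14 for Dnmt3b, 0.10 for Idh1 and -0.0373 for Idh2. The block over replicates 1 and 3 gave 0.0579 for Tet2, 0.22 for Dnmt3a and 0.0149 for Dnmt3b. The cause of these turns was not tested.

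With each tumor left out in turn, log2 fold changes ran from -0.84 to 0.16 (Tet1), -0.36 to 0.064 (Tet2), 0.14 to 0.38 (Tet3), -0.78 to -0.40 (Dnmt1), -0.28 to 0.0733 (Dnmt3a), -0.26 to 0.35 (Dnmt3b), -0.82 to -0.11 (Uhrf1), -0.30 to 0.008 (Tdg), -0.41 to 0.52 (Idh1) and -0.0359 to 0.73 (Idh2). Differences in share ran from -13.5 to -4.48 percentage points (Tet2), -8.55 to 5.54 (Dnmt3a), -6.52 to 5.74 (Idh1) and -7.29 to -4.00 (Dnmt1). Without Smc3/Bcl6 tumor 2 the r with replication genes was 0.91 for Dnmt1, 0.0516 for Dnmt3a, 0.0327 for Dnmt3b and 0.93 for Uhrf1. With the length and GC offset it was 0.38 for Tet3, 0.16 for Dnmt1 and 0.56 for Dnmt3a. As deviations from genotype means in 8 tumors it was 0.89 for Dnmt1, 0.0142 for Dnmt3a, 0.25 for Dnmt3b and 0.91 for Tdg, the last with an adjusted exact permutation p of 0.0509. Tet1, with at most 29 counts, and Tdg and Dnmt3b, with at most 247 and 204, carry the widest counting error.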
